A study of Mus musculus with 3 samples.

Results

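Homeobox patterning genes were examined in CLDE cells, an established mouse line of dental epithelium that was derived from the cervical loop at the growing end of the incisor. The members were every probe whose gene name in the scanner files belongs to the 4 HOX clusters (Hoxa, Hoxb, Hoxc and Hoxd) or to the Dlx, Msx, Pitx, Barx, Lhx or Irx families. They came to 67 genes read by 92 probes, of 24812 named genes and 56598 probes in all. The HOX clusters gave 39 genes and 52 probes, and the 6 other families, called craniofacial here, gave 28 genes and 40 probes.

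The study compared 3 cultures of the same line, each harvested 72 h after treatment: a mock transfection, a non-targeting control siRNA (siNeg) and an siRNA against Krt15 (siKrt15). The cells of all groups grew in keratinocyte serum-free medium, and each group was 1 one-colour Agilent array. On the siNeg and siKrt15 arrays the description and treatment labels name the opposite siRNA from the title, so "siKrt15" here means the array titled so. Krt15, the targeted type I keratin, had a processed signal of 2638 on the mock array, 1647 on the siNeg array and 267 on the siKrt15 array, and its direction goes with the titles.

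With 1 array in each group no test was possible, no p-value is given and no difference has a replicate check. Values are normalized signals on a log2 scale: 0 is an array's 75th percentile, which lay at a processed signal of 191.1 (mock), 180.4 (siNeg) and 216.0 (siKrt15). The ± value is an SD by the error model of the scanner software, which covers 1 hybridisation and not the spread between cultures. A probe counted as above background where the scanner called it well above background, which on these arrays began at a processed signal near 4.5, and no spot was saturated. Each gene is read by its own probes, so differences are taken between arrays and not between genes. Where genes are called dim, held to a percentile or set beside markers, their levels rest on different probes and compare only roughly. Both comparisons with siKrt15 use the same siKrt15 array and are not independent of each other.

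HOX genes encode transcription factors that give cells their position along the head-to-tail axis. They lie in order within their clusters, low paralog numbers acting toward the head and high numbers toward the trunk, limbs and tail, and tissue of the jaw is classically described as forming without them. Dlx, Msx, Pitx, Barx and Lhx genes encode the homeodomain factors that pattern the jaws and place and shape the teeth, and Irx genes pattern territories of epithelium, heart and nervous system.

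The craniofacial families were above background more completely than the HOX clusters. Of 28 craniofacial genes, 23 (82.1%) had a probe above background on all 3 arrays, 4 on 1 or 2 arrays and 1 on none. Of 39 HOX genes, 23 (59.0%) were above background on all 3 arrays, 4 on 1 or 2 and 12 on none. Over all named genes the share was 68.3% on all 3 arrays, so by this count the HOX share lay below it and the craniofacial share above it. A gene counts here through any 1 probe, so genes with several probes have more chances to count. Several probes read 10 of the 39 HOX genes, 10 of the 28 craniofacial genes and 11306 of all 24812. With every probe of a gene required to be above background, 20 HOX and 18 craniofacial genes remained. The share of all genes by that stricter rule is not given here, so these 2 counts have no background beside them. By single array, 72.4% of all genes were above background on mock, 73% on siNeg and 71% on siKrt15. When the signal also had to reach the 25th percentile of measured probes on each array, 17 HOX genes (43.6%) and 20 craniofacial genes (71.4%) remained, beside 55.7% of all genes.

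The background call was lenient, and dim signals of a few units above it have to be read with that in mind. Of 8 neural crest and nerve markers, which this line should lack, 7 were above background on all 3 arrays, and so were 7 of 10 blood and endothelial markers. Sox10, a neural crest factor, read 14.8, 12.3 and 11.2 on mock, siNeg and siKrt15, so a processed signal in that range does not separate an expressed gene from one a dental epithelial cell should not use. At or above the 75th percentile on all 3 arrays lay 36% of all genes, 5 HOX genes (12.8%) and 8 craniofacial genes (28.6%). At this limit both the HOX and the craniofacial share lay below that of all genes. The HOX genes include Hoxa7, Hoxb9, Hoxb13 and Hoxd8, and the craniofacial genes include Dlx3, Msx2, Pitx1, Irx1, Irx2, Irx3 and Lhx6. A gene counts here if any 1 of its probes reaches the limit on all 3 arrays, so the mean over the probes of Hoxb9 and Hoxd8 can lie lower. This higher limit was chosen after the values were seen. It was also reached by 1 of the 8 nerve markers (Elavl4), by 4 of the 10 blood and endothelial markers (Ptprc, Cd3e, Cd68 and Itgam) and by 2 of 21 dental mesenchyme markers (Osr2 and Prrx2).

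Msx2 and Dlx3, taken here as markers of craniofacial and dental epithelium, were above background on all 3 arrays. These 2 genes alone do not establish the identity of the line. Msx2, a factor of tooth and skull formation, had 2 probes above background on every array, with a mean processed signal of 393 on mock, 382 on siNeg and 432 on siKrt15. After scaling, Msx2 differed by −0.08 ± 0.14 between siKrt15 and siNeg and by −0.04 ± 0.14 between siKrt15 and mock. Dlx3, which acts in enamel and hair formation, had a normalized signal of 2.19, 2.02 and 1.98 in the same order. Both sat above the 75th percentile on each array. Pitx1, an early factor of the dental epithelium, read 6.64, 6.58 and 6.68. Among 30 tooth epithelium regulators 24 were above background on all 3 arrays, including the epithelial genes Krt5, Krt14, Trp63, Cdh1 and Epcam. Shh, Fgf9, Edar and Pax6 of that list were not above background on any array.

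The HOX signal was spread unevenly over the clusters. In HoxA 9 of 11 genes were above background on all 3 arrays, in HoxB 8 of 10, in HoxC 5 of 9 and in HoxD 1 of 9. In HoxA the signal reached as far as Hoxa10, after which Hoxa11 was not above background on any array and Hoxa13 was above it on mock and siNeg. HoxB ran from Hoxb3 to Hoxb9 with Hoxb13 besides, while Hoxb1 and Hoxb2, the genes at the head end of that cluster, were not above background. In HoxC the gaps were Hoxc8, Hoxc11 and Hoxc12, with Hoxc6 above background on siNeg and siKrt15. In HoxD only Hoxd8 was above background throughout, Hoxd4 and Hoxd13 were above it on siKrt15 alone, and Hoxd1, Hoxd3, Hoxd9, Hoxd10, Hoxd11 and Hoxd12 on no array.

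**Figure D1:**
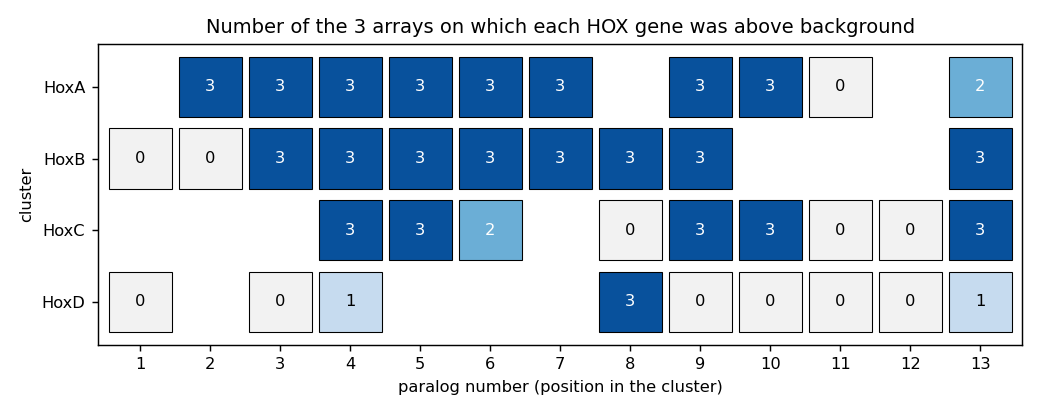
Map of the HOX genes by cluster (rows) and paralog number (columns); the number and shade in each box give how many of the 3 arrays had at least 1 probe of that gene above background, and empty places are not drawn. Among the genes drawn, HoxA holds 8 above background on all 3 arrays, HoxB 8, HoxC 5 and HoxD 1.

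Among the HOX genes near or above the 75th percentile, Hoxa7, a gene of trunk patterning, read 0.62 on mock, 0.75 on siNeg and 0.85 on siKrt15, and Hoxb13, known from prostate and skin, read 0.40, 0.75 and 0.60. Both were above the 75th percentile on every array, with siKrt15 highest for Hoxa7. Hoxb4, a regulator of blood stem cells, read 0.43, 0.40 and −0.09, lowest on siKrt15. Hoxd8 was read alike by its 2 probes, at processed signals of 164, 161 and 164 by one and 286, 289 and 281 by the other, on mock, siNeg and siKrt15. As the siKrt15 array was the brightest of the 3 at its 75th percentile, equal processed signals give a normalized value there that is lower, −0.01 against 0.18 (mock) and 0.26 (siNeg). Hoxb9 is a mean of 2 probes that read 679, 573 and 847 and 37.3, 36.4 and 42.2, and its normalized values were −0.26, −0.32 and −0.19.

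The other HOX genes above background on all 3 arrays were dim. Among Hoxa2, Hoxa3, Hoxa4, Hoxa5, Hoxa6, Hoxa9 and Hoxa10, the normalized values lay from −4.25 (Hoxa2 on siNeg) to −1.73 (Hoxa10 on siNeg). Hoxa2 read −4.20, −4.25 and −3.94 on mock, siNeg and siKrt15, and Hoxa10 −1.74, −1.73 and −1.76. Hoxa5 read −2.04, −2.05 and −2.19, and Hoxa9 −3.55, −3.72 and −4.03. None of the 7 differed between siKrt15 and siNeg by 1.5-fold. Hoxa3, Hoxa4 and Hoxa6 read −2.83, −2.88 and −2.54, then −3.11, −3.15 and −3.02, and −3.78, −3.67 and −3.87. In HoxB, Hoxb3 held level at −2.93, −2.93 and −2.94, and Hoxb7 read −3.42, −3.21 and −3.34. Hoxb6 was highest on mock, at −2.74 against −3.19 on siNeg and −3.10 on siKrt15. In HoxC, Hoxc4 read −3.88, −3.81 and −3.98, Hoxc5 −3.84, −3.71 and −3.73, and Hoxc13, a factor of hair and nail keratins, −2.45, −2.41 and −2.87. The arrays overlap closely for most of these genes. siKrt15 was below both controls for Hoxc4, Hoxc13, Hoxa5, Hoxa6 and Hoxa9, and slightly below both for Hoxa10 and Hoxb3. Under some of the 7 scalings the sign against siNeg turned for Hoxa5 (1), Hoxa6 (3), Hoxc4 (3), Hoxa10 (3) and Hoxb3 (3). Against mock it turned for Hoxa5 (1), Hoxa6 (3), Hoxc4 (3), Hoxa10 (4) and Hoxb3 (3). For Hoxa9 and Hoxc13 it turned under none in either comparison.

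**Figure D2:**
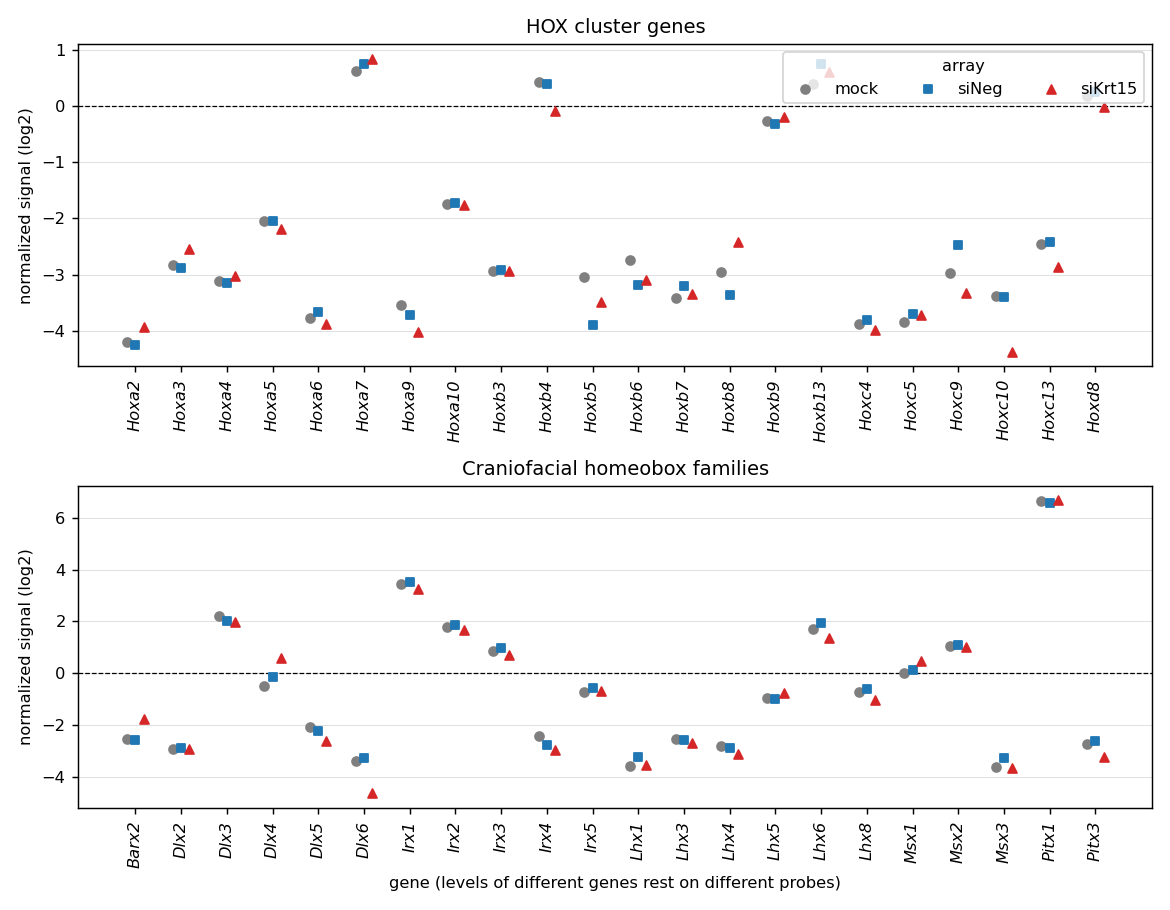
Normalized signal (log2, with 0 at each array's 75th percentile) of 22 HOX genes (top) and 22 craniofacial genes (bottom) with a probe above background on all 3 arrays; each symbol is 1 array. Dlx4 sits highest on siKrt15 and Dlx6 lowest on it, while Msx2 and Hoxb3 lie nearly level.

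Probes of the same gene did not always give the same call. Of the 20 members with several probes, 8 had some but not all of them above background on all 3 arrays, which are Hoxa3, Hoxa9, Hoxc13, Lhx1, Lhx4, Lhx6, Lhx8 and Msx3, and over all genes with several probes the share split was 31.9%. The count for HOX was 3 of 10 genes and for the craniofacial families 5 of 10. Lhx8, a tooth and basal forebrain factor, read 115, 117 and 106 on mock, siNeg and siKrt15 by one probe and was not above background by the other. Lhx4 likewise read 27.0, 24.4 and 24.8 by one probe and nothing above background by the other. Each difference rests on the probes above background on both arrays compared, which for Hoxa9 were 2 probes.

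Probe sequences bear on 2 of the split genes, Msx3 and Lhx6, and are shown for that reason. The probes of Msx3 and Hoxc11 carry the most conserved part of the homeobox, the codons of the helix that contacts DNA, printed in capitals:
Msx3: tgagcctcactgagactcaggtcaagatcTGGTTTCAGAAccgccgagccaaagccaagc
Hoxc11: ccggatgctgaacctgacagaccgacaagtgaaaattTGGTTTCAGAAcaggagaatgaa
They lie, in the mm9 coordinates of the scanner files, at chr7:147233824-147233883 (minus strand) and chr15:102787015-102787074 (plus strand). The capitals are the same in both at 11 of 11 bases. The motif was taken from bases 30 to 40 of the Msx3 probe with any base at its positions 6 and 9. Probes found by it could therefore differ from Msx3 only at those 2 positions. Its letters, TGGTTNCANAA, were searched on both strands, and 58 of the 56598 probes hold them (0.102%), 3 of them member probes.

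The Msx3 and Hoxc11 probes behaved differently. Msx3, normally a gene of the dorsal neural tube, was above background through this probe alone, at 15.5 on mock, 18.4 on siNeg and 17.1 on siKrt15, and its other probe was not above background on any array. The Hoxc11 probe was not above background on any array. Of the 3 member probes with the motif, of Hoxb3, Hoxc11 and Msx3, 2 were above background on all 3 arrays. Of all 58 probes with the motif 56.9% were, beside 62.7% of all probes. That rate does not show what any single probe bound. Whether these probes also bind RNA of other homeobox genes was not tested.

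Lhx6, a factor of jaw mesenchyme and of teeth, was read by one plain probe and by one that ends in a CA repeat. The opening bases of the plain probe and the closing bases of the other, with the repeat in capitals, are:
Lhx6 plain: ggcagcagaatagctgctacatcaagaaca
Lhx6 repeat: aaCACACACACACACACACACACACACACA
The plain probe, at chr2:35958379-35958438 (minus strand), was not above background on any array. The repeat probe, at chr2:35937644-35937703 (minus strand), read 614 on mock, 698 on siNeg and 555 on siKrt15. CA repeated 8 or more times, searched on both strands, occurred in 111 of all probes (0.196%), and 110 of those (99.1%) were above background on all 3 arrays against 62.7% of all probes. The level of Lhx6 and its place above the 75th percentile therefore rest on a probe of a kind that was nearly always above background here. What RNA that probe bound was not tested.

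Between siKrt15 and siNeg most members differed by less than 1.5-fold. Of 24 HOX genes measured on both arrays none differed by 2-fold, and of 25 craniofacial genes 1, Dlx6, was lower by more than that. Over all 17121 genes measured, 3.7% differed by 2-fold or more, 1.7% higher and 2% lower, so counts of 0 and 1 are near the background. At 1.5-fold, 2 HOX genes were higher (Hoxb8 among them) and 2 lower (Hoxc10 and Hoxc9), and 2 craniofacial genes were higher (Barx2 and Dlx4) and 5 lower (Dlx6, Dlx1, Lhx2, Lhx6 and Pitx3). Of all genes 13.4% passed 1.5-fold, 4.8% higher and 8.63% lower. The median difference was −0.02 for HOX, −0.19 for the craniofacial families and −0.08 over all genes. Under spike-in scaling, which moved the median of all genes up by 0.25, the HOX median was 0.23 and the craniofacial median 0.066.

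Between siKrt15 and mock the picture was similar. Of 23 HOX genes none differed by 2-fold and of 24 craniofacial genes Dlx4 was higher and Dlx6 lower, where 3.43% of all 17130 genes passed (2.18% higher and 1.24% lower). At 1.5-fold 3 members were higher, with Dlx4 and Barx2 among them, and Hoxc10 and Dlx6 lower, against 13.5% of all genes (5.83% higher and 7.69% lower). The median difference was −0.01 for HOX, −0.16 for the craniofacial families and −0.06 over all genes.

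The 2 control arrays lay closer together. Between siNeg and mock none of 24 HOX and none of 24 craniofacial genes differed by 2-fold, where 0.402% of all 17416 genes did (0.356% higher and 0.0459% lower). At 1.5-fold 1 of the members measured on both arrays differed, Hoxb5, a gene of lung and gut patterning, against 3.28% of all genes (2.42% higher and 0.856% lower). It read −3.04 on mock, −3.90 on siNeg and −3.48 on siKrt15, so siNeg was lower than mock by a log2 difference of −0.86 ± 0.25 and siKrt15 lay between the controls. The SD of the differences over members was 0.23 here, against 0.45 for siKrt15 minus siNeg and 0.42 for siKrt15 minus mock, and over all genes it was 0.23, 0.42 and 0.43.

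**Figure D3:**
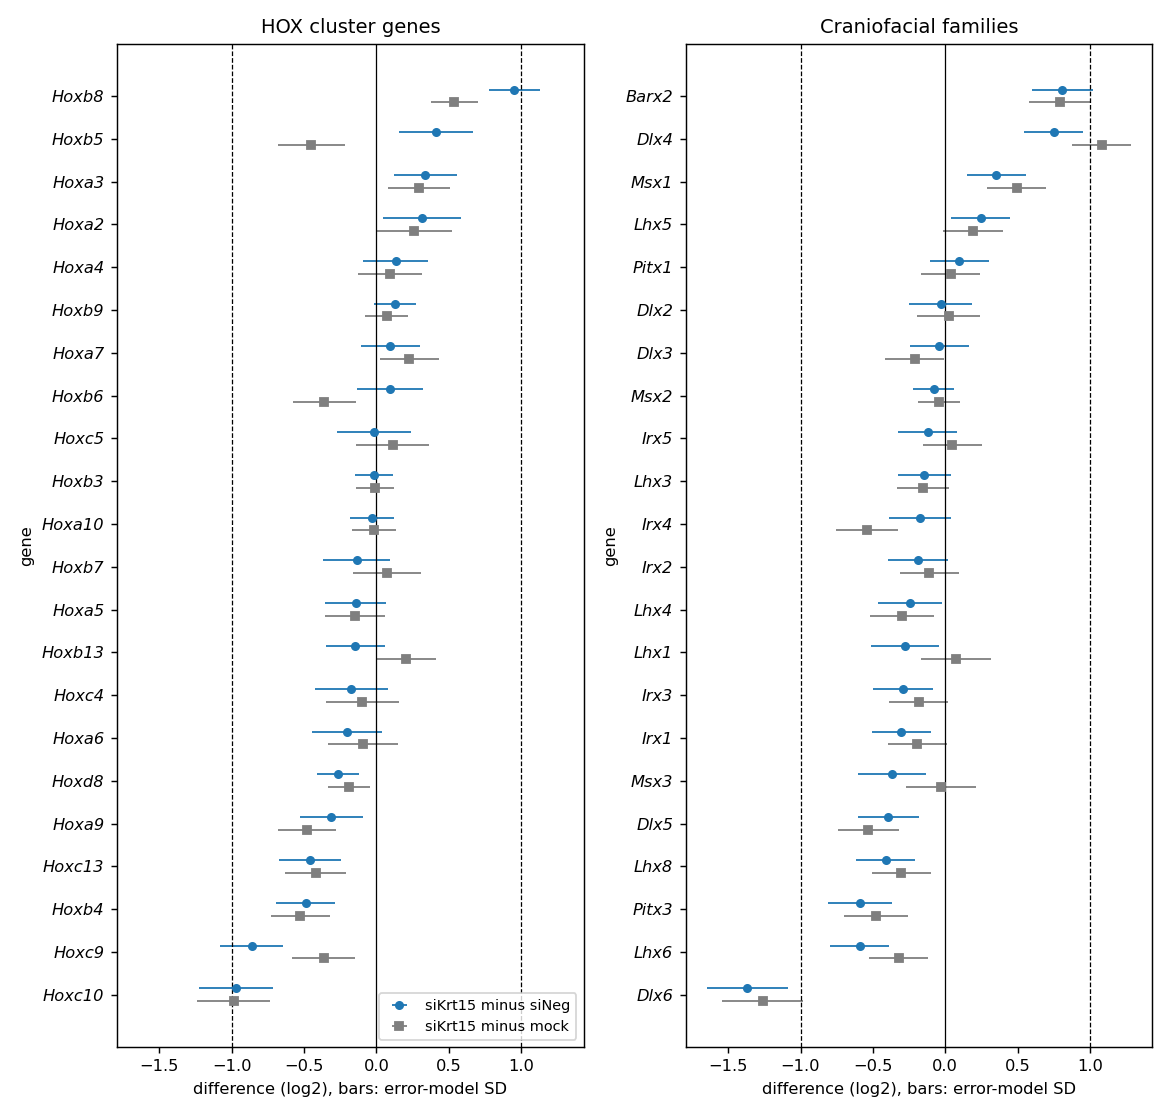
Log2 difference of the siKrt15 array from siNeg (circles) and from mock (squares) for 44 members above background on all 3 arrays, with bars of 1 error-model SD and dashed lines at 2-fold; both series share the siKrt15 array. Dlx6 lies lowest at −1.37 and −1.26, and Dlx4 reaches 1.08 against mock.

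Of the members above background on all 3 arrays, those past 2-fold were both Dlx genes. The stretches below are the opening 30 bases of the probes of 4 members that differed from both controls by 1.5-fold or more, each in a direction that held under all 7 scalings. No base is marked:
Dlx6: acagtgatcgaaaacggggaaatcaggttc
Dlx4: cctcgctgttgcctcgatcaaagaaactgc
Barx2: atgagacggtcaggtgccgacagacctgat
Hoxc10: ggaaagaaagggggataatcaaacagagag
The probes lie on mm9 at chr6:6815092-6815151 (plus strand), chr11:95001777-95001836 (minus strand), chr9:31653703-31653762 (minus strand) and chr15:102801857-102801916 (plus strand). Each gene has 1 probe here. For these and all other genes, the 7 scalings are not 7 separate checks. The percentile over detected probes, the deposited table and spike-in scaling amount nearly to a constant shift of each array. Spike-in scaling gave the largest such shift, 0.25 for siKrt15 minus siNeg and 0.12 for siKrt15 minus mock. A difference of 1.5-fold or more could not change sign under such shifts, so an unchanged sign there adds little.

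Dlx6, which with Dlx5 gives the lower jaw its identity, read −3.39 on mock, −3.28 on siNeg and −4.65 on siKrt15, or processed signals of 18.3, 18.5 and 8.62. The controls were level and siKrt15 stood below both. The difference was −1.37 ± 0.28 from siNeg and −1.26 ± 0.28 from mock. The gene was dim, and with background correction by normexp in place of the scanner's subtraction the differences were −0.38 and −0.30. Normexp as run here also adds an offset of 50 to every signal, more than the signal of Dlx6 on any array. Such an offset by itself draws log2 differences of dim genes toward 0. This applies to the normexp values of the other dim genes below as well.

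Dlx4, expressed in developing teeth and placenta, went the other way. It read −0.49 on mock, −0.16 on siNeg and 0.60 on siKrt15, and the 3 arrays were stepped, with siNeg above mock by 0.33 ± 0.20. The siKrt15 array was higher than siNeg by 0.75 ± 0.20 and than mock by 1.08 ± 0.20. Over 7 scalings these differences ran from 0.60 to 1.01 and from 0.87 to 1.20. Its cluster neighbour Dlx3 was nearly level, at −0.04 ± 0.20 from siNeg and −0.21 ± 0.20 from mock, and the difference from siNeg was above 0 under 2 of the 7 scalings.

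Dlx5, the partner of Dlx6, read −2.08, −2.22 and −2.62 on mock, siNeg and siKrt15. It lay lower on siKrt15 by −0.39 ± 0.21 from siNeg and −0.53 ± 0.21 from mock, below 0 under each of the 7 scalings and under 1.5-fold. Dlx2, an early jaw and tooth factor, was level at −2.94, −2.89 and −2.92. Dlx1 was above background on siNeg (8.03) and siKrt15 (4.87) and not on mock, with siKrt15 minus siNeg at −0.98 ± 0.37 and siNeg at least 1.87-fold above mock, values at the edge of detection. Under normexp and quantile normalization the difference from siNeg was −0.17 and −0.57, under 1.5-fold.

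Barx2, an epithelial factor of teeth and glands, read −2.56 on mock, −2.57 on siNeg and −1.77 on siKrt15. It was higher on siKrt15 by 0.81 ± 0.21 from siNeg and 0.79 ± 0.21 from mock, while the controls differed by −0.02. Under the 7 scalings the difference from siNeg ran from 0.26 (normexp) to 1.06. Barx1, its relative in molar mesenchyme, was not above background on any array.

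Hoxb4 was lower on siKrt15 by −0.49 ± 0.20 from siNeg and −0.53 ± 0.20 from mock, below 0 under each of the 7 scalings and under 1.5-fold. Hoxa7, Hoxb9, Hoxb13 and Hoxd8, which are near or above the 75th percentile as well, differed by less than 1.5-fold in each comparison.

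Hoxb8, a gene of trunk patterning and of myeloid cells, was read by 2 probes that went the same way. They read 13.9 and 43.7 on mock, 8.68 and 35.0 on siNeg, and 24.8 and 66.0 on siKrt15. siKrt15 was the highest and siNeg the lowest by both, and the probes gave 1.25 and 0.65 for siKrt15 minus siNeg. Their mean was 0.95 ± 0.18 from siNeg and 0.54 ± 0.16 from mock, and under normexp 0.17 and 0.12.

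Hoxc10 and Hoxc9, genes of the lumbar and thoracic trunk, were lowest on siKrt15. Hoxc10 read −3.39 on mock, −3.40 on siNeg and −4.37 on siKrt15, a difference of −0.97 ± 0.25 from siNeg and −0.99 ± 0.25 from mock. Hoxc9 read −2.96, −2.47 and −3.33, so the controls themselves differed by 0.50 ± 0.21, and siKrt15 was below siNeg by −0.86 ± 0.22 and below mock by −0.37 ± 0.22. Under normexp the Hoxc10 differences were −0.33 and −0.29 and that of Hoxc9 from siNeg was −0.41.

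**Figure D4:**
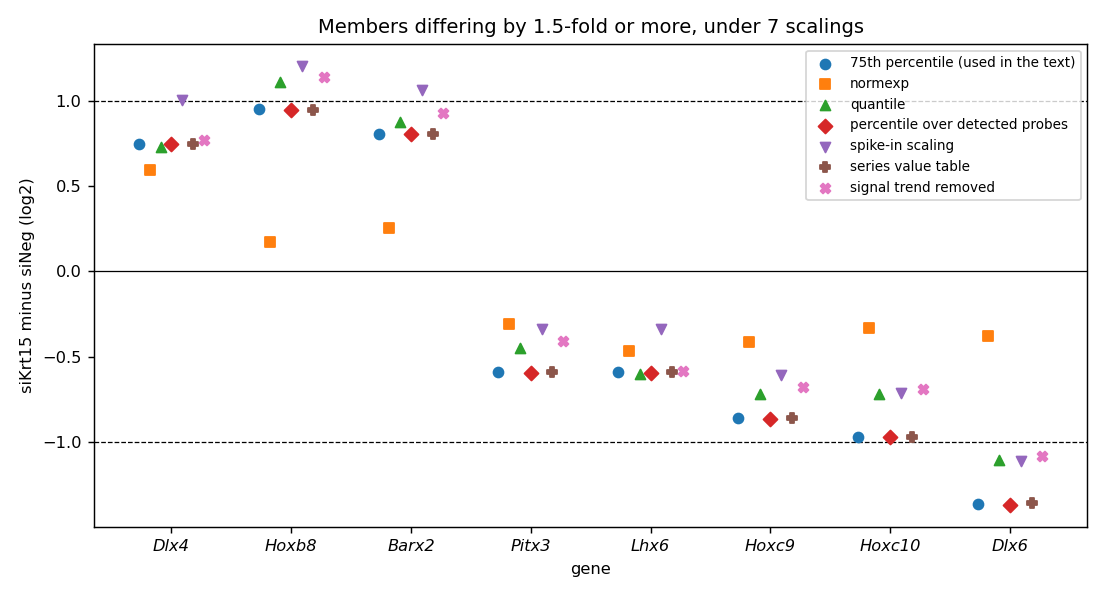
Log2 difference of siKrt15 from siNeg for 8 members measured on all 3 arrays that differed by 1.5-fold or more in that comparison, under 7 ways of scaling or background correction (symbols), with dashed lines at 2-fold. Dlx4 stays between 0.60 and 1.01. Normexp, which adds an offset of 50 to every signal, draws the dim Dlx6 from −1.37 to −0.38 and Hoxb8 from 0.95 to 0.17.

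Pitx3, known from the lens and midbrain, read −2.75 on mock, −2.64 on siNeg and −3.23 on siKrt15, lower on siKrt15 by −0.59 ± 0.22 from siNeg and −0.48 ± 0.22 from mock. Pitx1 differed by 0.10 and 0.04. Msx1, a factor needed for tooth buds to progress, was highest on siKrt15, at −0.01, 0.12 and 0.48, by 0.35 ± 0.20 from siNeg and 0.49 ± 0.20 from mock. The 2 Msx2 probes gave 0.12 and −0.28 for siKrt15 minus siNeg.

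The Irx genes were read with small differences. Irx1, Irx2, Irx3, Irx4 and Irx5 differed from siNeg by −0.30 to −0.12, all below 0, where 60.6% of all genes were below 0. Their signs turned on the scaling: under 1 of the 7 scalings Irx2 and Irx5 were above 0, under 2 Irx4, and Irx1 and Irx3 under none. Irx1 read 3.43, 3.54 and 3.23 on mock, siNeg and siKrt15, a difference of −0.30 ± 0.20 from siNeg. Against mock the differences of these 5 genes ran from −0.54 (Irx4) to 0.05 (Irx5), and that of Irx5 was above 0 under all 7 scalings. Irx6 was above background on mock and siKrt15 and not on siNeg, at signals of 5.89, 5.90 and 4.49.

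Among the Lhx genes, Lhx6 by its repeat probe read 1.68, 1.95 and 1.36 on mock, siNeg and siKrt15, a difference of −0.59 ± 0.20 from siNeg and −0.32 ± 0.20 from mock. Lhx8 was lower by −0.41 ± 0.20 and −0.30 ± 0.20, and Lhx5 higher by 0.25 ± 0.20 and 0.19 ± 0.20. Lhx2, a regulator of hair and tooth stem cells, was above background on siNeg and siKrt15, with −0.63 ± 0.41 between them, an error close to the value. Lhx9 was above background on mock and siNeg at 6.90 and 8.01 and not on siKrt15, which put siNeg at least 2.13-fold and mock at least 1.73-fold above siKrt15. The same kind of bound put Hoxa13 on siNeg at least 1.60-fold above siKrt15 and Hoxc6 on siKrt15 at least 1.51-fold above mock. The bounds of these dim genes are taken over the dim probe's own signal or over the lowest signal called above background on the dim array, whichever is higher. They take no account of the error model and were not repeated under the other scalings. The probe differences behind them were −0.94 ± 0.47 for Hoxa13 (siKrt15 minus siNeg) and 0.66 ± 0.47 for Hoxc6 (siKrt15 minus mock). For Lhx9 they were −1.19 ± 0.48 from siNeg and −0.89 ± 0.49 from mock.

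Genes that act with or on the HOX clusters differed little. Of the HOX cofactors, which bind DNA as partners of HOX proteins, 8 of 9 were above background on all 3 arrays and none of 8 differed by 2-fold between siKrt15 and siNeg, with a median of −0.20. Meis3 (−0.55), Meis2 (−0.42) and Meis1 (−0.37) were lower and Pbx2 (0.39) higher, all under 1.5-fold and with the same sign under each scaling. These genes have 3, 6, 4 and 2 probes in that order, and each value is a mean over those measured. A scaling does not test whether the probes of a gene go the same way. For Meis1, lower by its mean, the processed signal at hand was 616 on siNeg and 736 on siKrt15, which is not the mean over its measured probes. It rose about as much as the 75th percentile of the array, from 180.4 to 216.0. By that signal Meis1 was nearly level after scaling, so its lower mean does not hold for every reading of the gene. All 21 Polycomb genes, which keep HOX loci silent, and all 11 Trithorax genes, which keep them active, were above background on all 3 arrays. None of either list passed 2-fold, with medians of 0.01 and −0.13. Cbx6, a Polycomb reader, was higher on siKrt15 by 0.50, and Wdr5 of the Trithorax complexes by 0.53 from siNeg but −0.13 from mock, its siNeg value being lower than mock by −0.66.

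Of the retinoic acid pathway, which switches on HOX genes in the embryo, 12 of 16 genes were measured, 3 were lower by 2-fold or more from siNeg and none was higher, and the median was −0.38. The 3 were Rarb (−1.30), Cyp26c1 (−1.06) and Aldh1a2 (−1.03), each at a processed signal under 11 on every array, and at their smallest over the 7 scalings they were −0.31, −0.30 and −0.35, under 2-fold. From mock none of the 12 passed 2-fold, and Rarb read 5.56 on mock, 10.7 on siNeg and 5.23 on siKrt15, so for that gene siNeg stood apart, as it did for Cyp26c1 at 6.12, 9.79 and 5.62. Cyp26b1, which degrades retinoic acid, read 2909, 2831 and 1930 on mock, siNeg and siKrt15, a difference of −0.81 from siNeg and −0.77 from mock, and was named after its values were seen. Of the BMP pathway, which induces Msx and Dlx genes in teeth, 17 of 22 were measured, none passed 2-fold and the median was −0.08. Id4 (0.70), Fst (0.52) and Smad7 (0.51) were higher and Bmpr2 (−0.53) lower on siKrt15 than on siNeg. Id4 read 57.6, 37.7 and 73.1 on mock, siNeg and siKrt15. From mock it differed by only 0.17, its siNeg value being lower than mock by −0.53.

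Of 24 tooth epithelium regulators measured, 1 was higher by 2-fold or more on siKrt15 and none lower, with a median of −0.02. It was Lef1, a Wnt effector of tooth buds, at 138, 165 and 474 on mock, siNeg and siKrt15, or 1.26 from siNeg and 1.60 from mock. Markers of other cells were read beside the members. Of 21 dental mesenchyme markers 16 were above background on all 3 arrays, and their summed processed signal over the array's 75th percentile was 8.39 on mock, 8.55 on siNeg and 8.71 on siKrt15. Pdgfrb, Lum, Zeb1 and Alx4 were not above background on any array. The median difference from siNeg was −0.45, with 13 of the 16 measured markers below 0 and 3 above. Dcn was the 1 marker lower by 2-fold (−1.07), while Col1a1 was higher by 0.85 from siNeg and 0.98 from mock. Over the 7 scalings the Col1a1 difference from siNeg ran from 0.21 to 1.11. The 7 measured blood and endothelial markers had a median of −0.26, with 1 lower by 2-fold and Cdh5, Kdr and Tek not above background, and summed signals over the 75th percentile of 32.4, 31.8 and 25.9 on mock, siNeg and siKrt15. For the 7 measured neural crest and nerve markers the median was −0.13 with none past 2-fold and summed signals of 3.97, 4.02 and 4.02. Whether other cells had a part in the signals of the members was not tested.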

How the data were processed

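Total RNA of each culture was labelled with Cy3 as cRNA and hybridised to a one-colour Agilent mouse array, per the labels' protocols. Images were read with Agilent Feature Extraction 11.5.1.1, per the submitters' processing notes. The protocol was GE1_1105_Oct12 and probe positions are on mm9, per the file headers, and the deposited values are spot intensity on a linear scale, background-subtracted within the array. The value table that the authors deposited is on a log2 scale and follows the scanner values minus a constant near each array's 75th percentile.

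Here the log2 intensity minus each array's 75th percentile over non-control probes was used, with outlier spots (69, 68 and 85 on mock, siNeg and siKrt15) left out. Probes were named through RefSeq (GRCm38.p6, names only), 32989 by accession, 10224 by symbol and 520 by synonym, and 12865 kept the name in the files. No exon or UTR annotation of mm9 was used here. A gene's difference is the mean over probes above background on both arrays. Precision is limited by 1 array per group. The deposited files give probes above background of 67.6%, 67.8% and 65.8% on mock, siNeg and siKrt15.

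Values on each array are given for Msx2, Dlx3, the HOX genes above background on all 3 arrays, members differing by 1.5-fold between any 2 arrays and members with a bound of 1.5-fold, and up to 4 genes of a related list with the largest difference of siKrt15 from siNeg. The members, the rule and the related lists were chosen with earlier results of these data known. Alternatives were normexp background correction (offset 50), quantile normalization, the percentile over detected probes, spike-in scaling (308 spots), removal of a signal trend (lowess, fraction 0.3), the deposited table, other filters on dim probes, the brightest probe and 1.5-fold. Some members that this rule names are counted and not reported here. The scripts were also tested on simulated data. Python 3.11.15, numpy 2.4.6, pandas 2.3.3, statsmodels 0.14.6, matplotlib 3.10.9, R 4.3.3 and limma 3.58.1 were used.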

Additional observations from a re-analysis of the deposited data

How the results depend on the processing

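No paired analysis was possible because each group is 1 array. Of 140 alternative values of the main results 116 stayed within 1.5 times of the count or within the error, and 24 moved. Of 726 values for single genes and related lists 628 stayed and 98 moved. No difference of 2-fold or more changed sign. Smaller ones did, 10 medians of the members and 101 values for genes and lists, the largest of them 0.41 in size. The count of HOX genes at 2-fold between siKrt15 and siNeg, 0, became 1 under quantile normalization, 1 under spike-in scaling, 1 with the trend removed, 5 with no filter and 4 at 1.5-fold, and the HOX median moved from −0.02 to 0.23 under spike-in scaling. The craniofacial count, 1, became 0 under normexp, 3 under spike-in scaling, 2 with no filter, 0 with the stricter filter and 7 at 1.5-fold, and its median moved from −0.19 to 0.066 under spike-in scaling. Against mock the HOX count, 0, became 1 with the percentile over detected probes, 2 with no filter and 2 at 1.5-fold, and the craniofacial count, 2, became 0 under normexp and 1 with the stricter filter. Between siNeg and mock the HOX count, 0, became 2 with no filter and 1 at 1.5-fold. The count of members above background, 23 HOX and 23 craniofacial, became 5 and 8 at or above the 75th percentile, a limit added after the data were seen. Those are 12.8% and 28.6%, beside 36% of all genes. Krt15, −2.88 from siNeg, was −2.64 under normexp and −2.63 under spike-in scaling, and −3.48 from mock became −3.23 under normexp. The normexp offset of 50 by itself draws log2 differences toward 0, most for dim genes. The cause of the other shifts was not tested. Over all genes at 2-fold, the share higher between siKrt15 and siNeg was 46.0%, against 78.1% under normexp, 72.6% under quantile normalization, 81.0% under spike-in scaling and 75.9% with the trend removed. Spike-in scaling moved the median of all genes by 0.25 (siKrt15 minus siNeg), 0.12 (siKrt15 minus mock) and −0.13 (siNeg minus mock), and removal of the trend by 0.11 and 0.11 for the comparisons with siKrt15. Dim members, with signals near those of markers the line should lack, are where the settings differ most, and normexp moved 29 of the 98 single values and spike-in scaling 36.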

Other observations

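Transcripts that neighbour the members in the HOX, Dlx and Lhx loci were read by other probes and were picked after their values were seen. Dlx6os1, a noncoding RNA of the Dlx5 and Dlx6 locus also called Evf2, had 1 of 3 probes above background, at 10.99 on mock and 9.77 on siNeg, and not above it on siKrt15 at 4.61. This put siKrt15 at least 2.54-fold below siNeg and at least 2.70-fold below mock, the direction of Dlx6 itself, while Dlx6os2 was level with −0.13 from siNeg. At the trunk end of the HoxA cluster Hottip, a noncoding RNA beside Hoxa13, read 30.1, 30.3 and 18.2, lower on siKrt15 by −0.99 and −0.90, with Hoxa13 itself at the edge of detection. The 2 probes of Lhx1os parted: one rose above background on siKrt15 alone (16.5, at least 3.08-fold above siNeg), and the other read 168, 163 and 118. None of these values has a replicate check, and the bounds take no account of the error model.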
